A study of Mus musculus with 22 samples.

Results

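The genes described here are Hmgcs1, Sqle, Idi1, Fdft1, Lss, Cyp51, Dhcr7 and Srebf2, 8 genes of cholesterol synthesis listed by name, with earlier results of these data known. Expression could be read for 7 of the 8 among 37991 genes in the RNA-seq counts, and methylation around the transcription start site (TSS) for the same 7. No value could be assigned to Hmgcs1 in either. The list has been called cholesterol synthesis and uptake genes, but none of the 8 encodes a receptor or transporter that takes up cholesterol: 7 are enzymes of synthesis and Srebf2 encodes the transcription factor of the pathway. Genes of sterol uptake are given below from a separate list. The study asked what loss of Rlf, a zinc finger protein, does to DNA methylation and gene expression in the mouse. Mice were of an inbred FVB/NJ line in which every animal, wild-type or mutant, is homozygous for a GFP transgene array. Mutants were homozygous for MommeD28, an allele from chemical (ENU) mutagenesis described as a null allele of Rlf, and are called homozygous here.

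Whole genome bisulphite sequencing (WGBS), which counts at each CpG the reads whose cytosine resisted conversion and so was methylated, was performed at 3 stages with 2 libraries per genotype each: on the whole embryo at E10.5, and on the liver at E14.5 and again at E18.5. The E10.5 embryos were male, the E18.5 livers female, and at E14.5 replicate 1 of each genotype was male and replicate 2 female. RNA-seq was performed on 3 wild-type and 3 homozygous E14.5 livers, of which replicate 3 of each genotype was female. Stage therefore differs in part together with sex, and stage differences are also given below within 1 sex. Between E10.5 and E14.5 stage and tissue cannot be told apart. The study describes the 4 E14.5 livers of WGBS as littermates, and nothing more ties samples to embryos or litters, so each p-value measures the spread between the libraries given.

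Cholesterol is made from acetyl-CoA. HMG-CoA synthase (Hmgcs1) acts near the start of the mevalonate pathway, Idi1 isomerises isopentenyl diphosphate, Fdft1 joins farnesyl units to squalene, Sqle oxidises squalene, Lss closes the ring to lanosterol, Cyp51 removes a methyl group from lanosterol and Dhcr7 carries out the last reduction to cholesterol. When sterols are scarce, Srebf2 is cut from its membrane anchor and its fragment, SREBP-2, binds sterol regulatory elements (SREs) in the promoters of these genes. In fetal liver, hepatoblasts share the organ with many developing red blood cells, which also build membranes.

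The promoters of 4 of the 8 genes are printed to show the range that the methylation values below refer to. Each line holds the 250 bases before the TSS in mm9, 5′ to 3′ on the strand of the gene, with the C and G of every CpG in capitals. Sqle (chr15:59146386-59146635, + strand) had the most CpGs of the 8, with 38. Idi1 (chr13:8884602-8884851, + strand) had the fewest, with 7. Cyp51 (chr5:4104747-4104996, - strand), with 18, had the lowest methylation around its TSS, and Dhcr7 (chr7:151008822-151009071, + strand), with 21, the highest. Over all genes the median was 9 CpGs in the same 250 bases.
Sqle: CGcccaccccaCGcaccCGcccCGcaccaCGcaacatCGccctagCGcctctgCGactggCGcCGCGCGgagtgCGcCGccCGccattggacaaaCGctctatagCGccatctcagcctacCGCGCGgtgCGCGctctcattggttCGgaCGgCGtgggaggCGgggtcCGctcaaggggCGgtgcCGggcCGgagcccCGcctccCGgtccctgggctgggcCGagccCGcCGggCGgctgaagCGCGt
Idi1: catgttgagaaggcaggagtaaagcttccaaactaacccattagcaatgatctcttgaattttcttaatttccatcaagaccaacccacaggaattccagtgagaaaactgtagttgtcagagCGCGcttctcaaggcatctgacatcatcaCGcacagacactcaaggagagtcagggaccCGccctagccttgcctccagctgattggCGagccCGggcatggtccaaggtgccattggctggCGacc
Cyp51: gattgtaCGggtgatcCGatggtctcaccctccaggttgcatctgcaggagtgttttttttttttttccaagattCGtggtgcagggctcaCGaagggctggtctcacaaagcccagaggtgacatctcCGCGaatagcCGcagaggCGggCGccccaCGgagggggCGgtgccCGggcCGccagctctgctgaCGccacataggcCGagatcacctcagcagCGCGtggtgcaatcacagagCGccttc
Dhcr7: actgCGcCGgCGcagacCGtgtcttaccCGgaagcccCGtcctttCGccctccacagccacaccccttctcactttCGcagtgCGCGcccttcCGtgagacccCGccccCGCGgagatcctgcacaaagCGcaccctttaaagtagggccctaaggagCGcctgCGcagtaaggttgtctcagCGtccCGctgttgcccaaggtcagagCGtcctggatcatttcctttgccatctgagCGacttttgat

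The CpGs of these stretches were close to unmethylated. All 38 CpGs of Sqle, 7 of Idi1, 18 of Cyp51 and 21 of Dhcr7 had at least 6 reads in every WGBS library. Pooled over the 12 libraries, the highest level at any of them was 0.306% in Sqle, 0.548% in Idi1, 1.36% in Cyp51 and 0.233% in Dhcr7. So the higher methylation of Dhcr7 given below lies outside the printed bases. Of the other 3 genes with data, Fdft1 (30 CpGs), Lss (25 of 28 covered) and Srebf2 (25) did not exceed 0.802% at any CpG of the stretch.

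The promoters were searched on both strands for 3 motifs. The SRE was spelled TCACNCCAC, the CCAAT box CCAAT and the GC box GGGCGG, and in the 8 promoters no match of one overlapped a match of another. The SRE was in 1.01% of 22359 promoters of all genes of the same length, the CCAAT box in 34.8% and the GC box in 41.0%. All 8 genes held a GC box, and 6 of the 8, all but Cyp51 and Dhcr7, held a CCAAT box. The SRE was found only in Hmgcs1, from base -137 to -129 before the start. These are matches of letters and not measured binding sites, and the lack of a match says nothing about the factor. The Hmgcs1 promoter is the RefSeq sequence of GRCm38.p6 (chr13:119690101-119690350, + strand), and the others were read from mm9. The lines show the SRE of Hmgcs1 and, for comparison, the CCAAT box of Srebf2 and the GC box of Cyp51, each in capitals with flanking bases.
Hmgcs1 SRE: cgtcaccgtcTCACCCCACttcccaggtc
Srebf2 CCAAT box: tcgcgcgccgATTGGctaatgcaag
Cyp51 GC box: cccacggaggGGGCGGtgcccgggcc

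Hmgcs1 was not named in the annotation that fits the counts, so no count could be assigned to it. That annotation left 786 identifiers of the counts without a name, and whether Hmgcs1 is among them was not determined. Its promoter was found in 2 unplaced contigs of mm9, NT_110857 and NT_166323, whose sequence within 3 kb of the start was identical at 6001 of 6001 bases. Of 107 CpGs within 3 kb of the start, 3 had a read in one copy, with 3 reads in all, and 0 in the other. No methylation level is given for Hmgcs1.

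The RNA-seq libraries held 12,928,313 to 14,621,004 counts. WGBS depth was 14.7 to 16.7 reads per CpG of the genome at E10.5, 28.8 to 32.6 at E14.5 and 15.9 to 16.4 at E18.5. Methylation over all CpGs spanned 70.5% to 73.8% at E10.5, 56.3% to 60.2% at E14.5 and 61.3% to 65.4% at E18.5, so the whole genome was lower in liver. At most 0.0775% of lambda DNA, which is unmethylated, was read as methylated. Rlf transcripts were at 70.4 ± 1.73 CPM (SD, n = 3, counts scaled to library size) in wild-type and 74.6 ± 6.28 CPM in homozygous livers (adjusted p = 0.646, edgeR quasi-likelihood test). For an allele made by ENU the transcript level does not check the genotype.

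In E14.5 liver the synthesis genes were well expressed, apart from Idi1. On a scale per length (RPKM, counts scaled by exon length and library size), Cyp51 was highest, with a mean of 51.2 over the 6 livers, above 90.9% of the genes tested. Dhcr7 followed with 48.0, Srebf2 with 39.3, Sqle with 36.3, Fdft1 with 34.6 and Lss with 21.2. The place of Lss depends on the scale. Its exon length, summed over all transcripts, was 10787 bases, against at most 5546 in the other genes with counts. In CPM, without length, Cyp51 and Lss were the 2 highest of the 7. Within each genotype the SDs of Cyp51 (3.16 and 3.19 RPKM) and Dhcr7 (3.22 and 3.66) were of the size of the gap between them, and the same held for Srebf2, Sqle and Fdft1. Idi1 was far lower, at 3.08 RPKM, above 31.2% of the genes tested. The Idi1 value is uncertain: 82.4% of its 2866 exonic bases recur elsewhere in mm9 at 98% identity or more. The closest copy is the pseudogene Gm13502 (chr2:53553399-53555869), with 99.3% identity over 2378 bases and more counts (165 to 231 a liver) than Idi1 itself (106 to 143), and reads of the pair cannot be told apart with certainty.

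**Figure D1:**
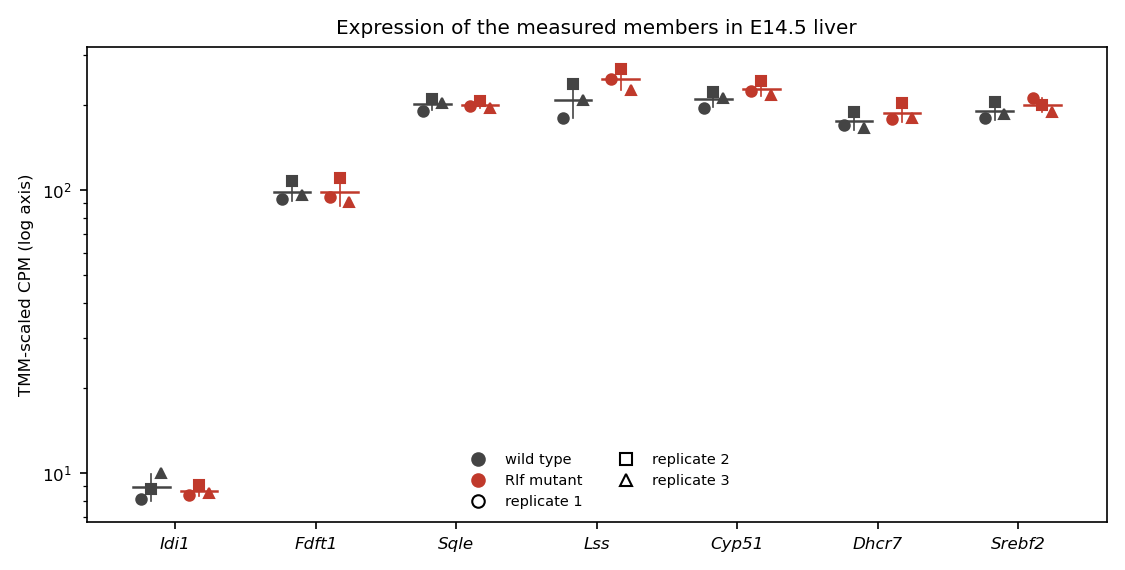
Expression of the 7 genes with counts in the 6 E14.5 livers, in CPM on a log axis, with a point for each liver and a bar for the mean of each genotype. For every gene the wild-type and homozygous points overlap, Idi1 lies near 9 CPM and the other genes lie between 90.8 and 269.5 CPM.

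No gene of the 7 passed the test between genotypes. Of 14183 genes tested with the edgeR quasi-likelihood test, 197 (1.39%) were called at a Benjamini-Hochberg adjusted p under 0.05, 99 higher and 98 lower in the homozygotes, and 0 of the 7. DESeq2 also called 0 of the 7. It is among 5 alternatives with all 6 libraries, which called 197 to 532 genes. At an unadjusted p under 0.05 there was 1 of the 7, Lss, against 14.6% of all genes. In none of the 7 did the 3 homozygous livers lie wholly above or wholly below the 3 wild-type livers, which was so for 20.3% of all genes. The median log2 fold change (homozygous over wild-type) was 0.07 for the 7 and -0.00171 for all genes. In bulk RNA a change in the number of cells of a type and a change in RNA per cell cannot be told apart.

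Squalene synthesis and oxidation showed nearly equal levels in the genotypes. Fdft1 had 1218, 1628 and 1377 counts in wild-type livers and 1220, 1531 and 1294 in homozygous livers. In CPM this was 99.02 ± 7.62 against 98.7 ± 10.4 (SD, n = 3), a log2 fold change of -0.01 with a 95% interval of -0.18 to 0.17. The 3′ end of Fdft1 overlaps Ctsb on the other strand, and reads were counted without regard to strand. Sqle, the enzyme after Fdft1, had 2509, 3184 and 2892 counts against 2565, 2864 and 2793. Its log2 fold change was -0.01, with an interval of -0.14 to 0.13 (adjusted p = 0.973). Idi1, earlier in the pathway, had 106, 133 and 143 counts against 108, 126 and 121, and its interval, -0.33 to 0.22, was the widest of the 7.

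The largest difference among the 7 was in Lss, lanosterol synthase. Its counts were 2366, 3595 and 2972 in wild-type and 3182, 3735 and 3233 in homozygous livers. In CPM these were 180.5, 237.5 and 208.5 against 247.0, 269.5 and 227.0. Replicate 2 of the wild types thus lay above replicate 3 of the homozygotes, and the groups overlapped. The log2 fold change was 0.25 with a standard error of 0.10 and an interval of 0.04 to 0.46, and the adjusted p was 0.265. With replicate number as a block, the adjusted p of Lss was 0.0571.

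Cyp51 and Dhcr7, which act after Lss, and Srebf2 had positive log2 fold changes whose intervals include 0. Cyp51 had 196.2, 223.2 and 211.7 CPM in wild-type livers and 224.5, 243.7 and 217.2 CPM in homozygous livers. Dhcr7 had 170.6, 189.4 and 166.5 CPM against 179.1, 203.7 and 180.5 CPM. Srebf2 had 180.9, 205.7 and 185.7 CPM against 212.1, 200.7 and 190.0 CPM. In each gene a wild-type liver reached into the range of the homozygous livers. Between livers of the same replicate number, Cyp51, Dhcr7 and Lss were higher in the homozygote in all 3 pairs, 3 of the 7 genes against 20% of all genes, and Srebf2 in 2 of 3. The log2 fold changes were 0.12 for Cyp51 (interval -0.04 to 0.27), 0.10 for Dhcr7 (-0.07 to 0.26) and 0.07 for Srebf2 (-0.08 to 0.23), and their adjusted p-values were 0.479, 0.604 and 0.684.

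The level of the 7 genes in each liver is summarised by their average. With each gene centred on its mean log2 CPM, the average over the 7 was lowest in wild-type replicate 1 (-0.14) and highest in homozygous replicate 2 (0.12), with the other 4 livers between -0.04 and 0.06. Pearson's r between pairs of the 7 over the 6 livers ran from -0.0984 to 0.982, with a median of 0.623 over 21 pairs. The highest was that of Cyp51 with Lss, and the 6 pairs with Idi1 ran from -0.0984 to 0.568. These values come from the same 6 libraries and are a description only. The genes outside the pathway lists whose log2 CPM was most like the average of the 7 were Mapkapk3 (r = 0.989, Spearman's rho = 1), Tmem55b (r = 0.988, rho = 0.943), Rara (r = 0.983, rho = 1), Acer2 (r = 0.982, rho = 0.886) and Zfp280b (r = 0.980, rho = 1), over 6 livers.

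Of 50 tested genes in 5 neighbouring lists of sterol and lipid metabolism, 1 was called (2%, against 1.39% of all genes), and 11 had an unadjusted p under 0.05, which 14.6% of all genes had. Of 14 other enzymes of cholesterol synthesis, 0 passed the test and 1 had an unadjusted p under 0.05. Their median log2 fold change was 0.01. Sc5d, a desaturase late in the pathway, had a log2 fold change of 0.19 (adjusted p = 0.381). Of 7 genes that process or restrain SREBPs, 0 passed the test, with 2 at an unadjusted p under 0.05. Insig1, which holds SREBPs in the endoplasmic reticulum and is itself an SREBP target, had a log2 fold change of 0.22 (adjusted p = 0.230), and Mbtps2, a protease that frees the SREBP fragment, had 0.25 (adjusted p = 0.338).

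Of 11 genes of sterol uptake and transport inside the cell, 0 passed the test and 2 had an unadjusted p under 0.05. Npc1, which moves cholesterol out of lysosomes, had a log2 fold change of 0.20 (adjusted p = 0.288). Of 10 targets of SREBP-1 in fatty acid synthesis, 0 passed and 4 had an unadjusted p under 0.05. The smallest p-values were those of Fasn, fatty acid synthase, with 198.1 ± 12.4 against 246.6 ± 38.0 CPM (log2 fold change 0.32, adjusted p = 0.156), and Acaca, acetyl-CoA carboxylase, with a log2 fold change of 0.26 (adjusted p = 0.220).

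Lcat was the only gene of these lists that was called. It encodes the plasma enzyme that esterifies cholesterol on lipoproteins. Among 9 genes of efflux and esterification 8 could be tested, and Lcat was lower in the homozygotes. It had 80.1, 73.0 and 65.7 CPM in wild-type and 53.2, 60.0 and 55.3 CPM in homozygous livers, with all 3 homozygous values below all 3 wild-type values. The log2 fold change was -0.38 with an interval of -0.55 to -0.20 (adjusted p = 0.0449). The call was lost when any library but wild-type replicate 3 was left out, with adjusted p-values of up to 0.169. Abca1, the transporter that loads cholesterol onto apolipoprotein A1, had 165.1 ± 11.3 CPM against 216.4 ± 49.4 CPM (log2 fold change 0.39, adjusted p = 0.173), and with replicate number as a block its adjusted p was 0.0332.

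Markers of the cell types of the organ were measured beside these genes. The summed level of 13 erythroid markers, led by Hbb-b1 and Hba-a1, was 30718 to 55995 CPM in wild-type and 37926 to 41137 CPM in homozygous livers. The 12 hepatoblast markers, led by Afp and Alb, summed to 62657 to 73963 CPM in wild-type and 76607 to 88637 CPM in homozygous livers, and 0 of the 12 passed the test. All 3 homozygous livers lay above the wild types for this sum. By single markers, 12 of the 13 erythroid genes had a negative log2 fold change (median -0.149), and 0 of the 13 passed the test. A positive one was found in 11 of the 12 hepatoblast genes (median 0.114). Over all 14183 genes 7011 were higher and 7172 lower. Megakaryocyte markers (5 genes) were at 474.3 to 494.6 against 556.8 to 626.6 CPM, macrophage markers (7) at 647.0 to 705.5 against 602.3 to 633.4, endothelial markers (5) at 250.4 to 275.1 against 274.2 to 324.8, mesenchymal markers (5) at 487.7 to 647.0 against 522.5 to 804.7 and neutrophil markers (5) at 462.3 to 644.3 against 437.4 to 522.0. Of the 52 markers tested 4 were called (7.69%, against 1.39% of all genes), named here after their values were seen: Pf4 of megakaryocytes was higher in the homozygotes (log2 fold change 0.40, adjusted p = 0.0143), and Cd5l of macrophages (-1.19, adjusted p = 0.00187) and Ngp (-0.93, adjusted p = 0.0143) and Elane (-0.76, adjusted p = 0.0493) of neutrophils were lower. Within these lists, 4 of 7 macrophage markers had a positive log2 fold change (median 0.0558), and the median of the 5 neutrophil markers was -0.0320. No marker was at 0. The part of these cell types in the values of the cholesterol genes was not tested.

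The TSS windows (1 kb to either side) of all 7 genes were methylated at a low level in all 12 WGBS libraries. Cyp51 (chr5:4103746-4105746) had 0.0303% to 0.164%, a level higher than that of only 3.03% of all TSS windows. The windows of Srebf2 (chr15:81976696-81978696) had 0.325% to 0.664% and those of Idi1 (chr13:8883852-8885852) 0.105% to 1.12%. Sqle (chr15:59145636-59147636) had 1.15% to 3.48% and Fdft1 (chr14:63795630-63797630) 1.80% to 4.04%. Lss (chr10:75993352-75995352) with 3.50% to 6.77% and Dhcr7 (chr7:151008072-151010072) with 5.06% to 12.5% were highest. The median of all 19874 TSS windows was 7.53%, and 42.9% of them were under 5%, as 5 of the 7 genes were. Across the 12 libraries the range of Idi1 overlapped those of Cyp51 and Srebf2, as did those of Sqle and Fdft1, Fdft1 and Lss, and Lss and Dhcr7. Library by library, Dhcr7 was above Lss and Lss above Fdft1 in 12 of 12 libraries, as were Srebf2 above Cyp51 and Sqle above Idi1. Fdft1 was above Sqle in 9 of 12 and Idi1 above Srebf2 in 6 of 12, so these 2 pairs of neighbours had no fixed order.

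Single CpGs show where the methylated reads of Lss and Dhcr7 came from. All 97 covered CpGs of the Cyp51 window were under 5% when pooled over the 12 libraries, as were 134 of 139 in Srebf2, 105 of 113 in Sqle, 70 of 79 in Fdft1 and 58 of 60 in Idi1. Lss had 59 of 69 CpGs under 5% and 6 over 50%, and Dhcr7 had 42 of 51 under 5% and 7 over 50%. The 7 CpGs of Dhcr7 lay at -944, 261, 284, 299, 521, 935 and 975 bp from the TSS, 3 of them near the edges of the window and the other 4 within its downstream side.

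The stretch of neighbouring CpGs under 10% around each TSS differed in width among the genes. In Dhcr7 it ran from -656 to 70 bp, 727 bp wide, with the same ends in all 6 groups of stage and genotype. It was 898 bp wide in Lss, 947 bp in Fdft1, 1098 bp in Cyp51, 1248 bp in Idi1, 1586 bp in Srebf2 and 1813 bp in Sqle. Each width ends at the last covered CpG under 10%. The next covered CpG upstream lay 1167 bp further in Fdft1, 1048 bp in Idi1 and 983 bp in Cyp51. These 3 stretches may therefore be wider, and their order is not fixed. By the widths given, the 3 narrowest stretches were those of the 3 genes with the most methylated TSS windows. Sqle, with the widest, came next after them in methylation. Fdft1, like Dhcr7, had the same ends in all 6 groups, but its upstream end borders the 1167 bp without a covered CpG. In the other 5 genes an end moved by 1 to 4 CpGs between groups.

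**Figure D2:**
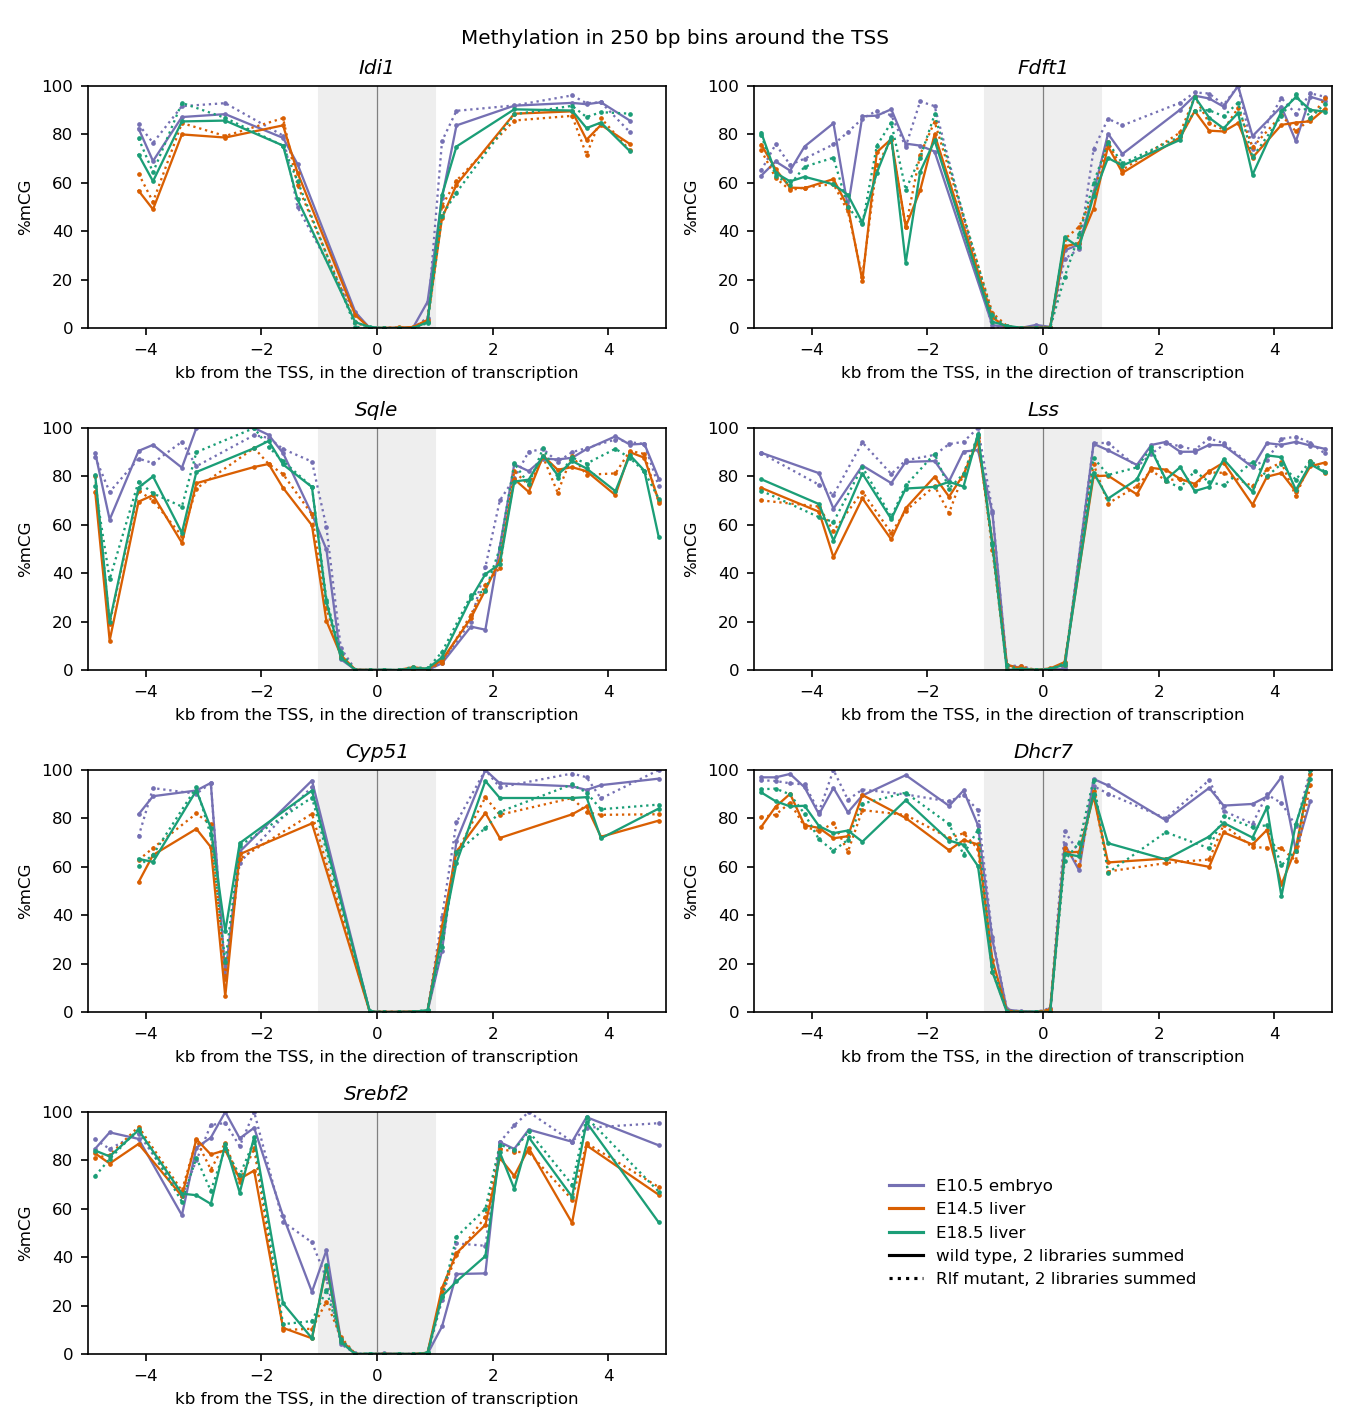
Percent methylation in bins of 250 bp from 5 kb before to 5 kb after the TSS of the 7 genes, with a line for each stage and genotype (2 libraries pooled) joining the bins that hold covered CpGs. Every gene falls to near 0 at its TSS, and away from it the 2 embryo lines lie above most of the 4 liver lines.

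**Figure D3:**
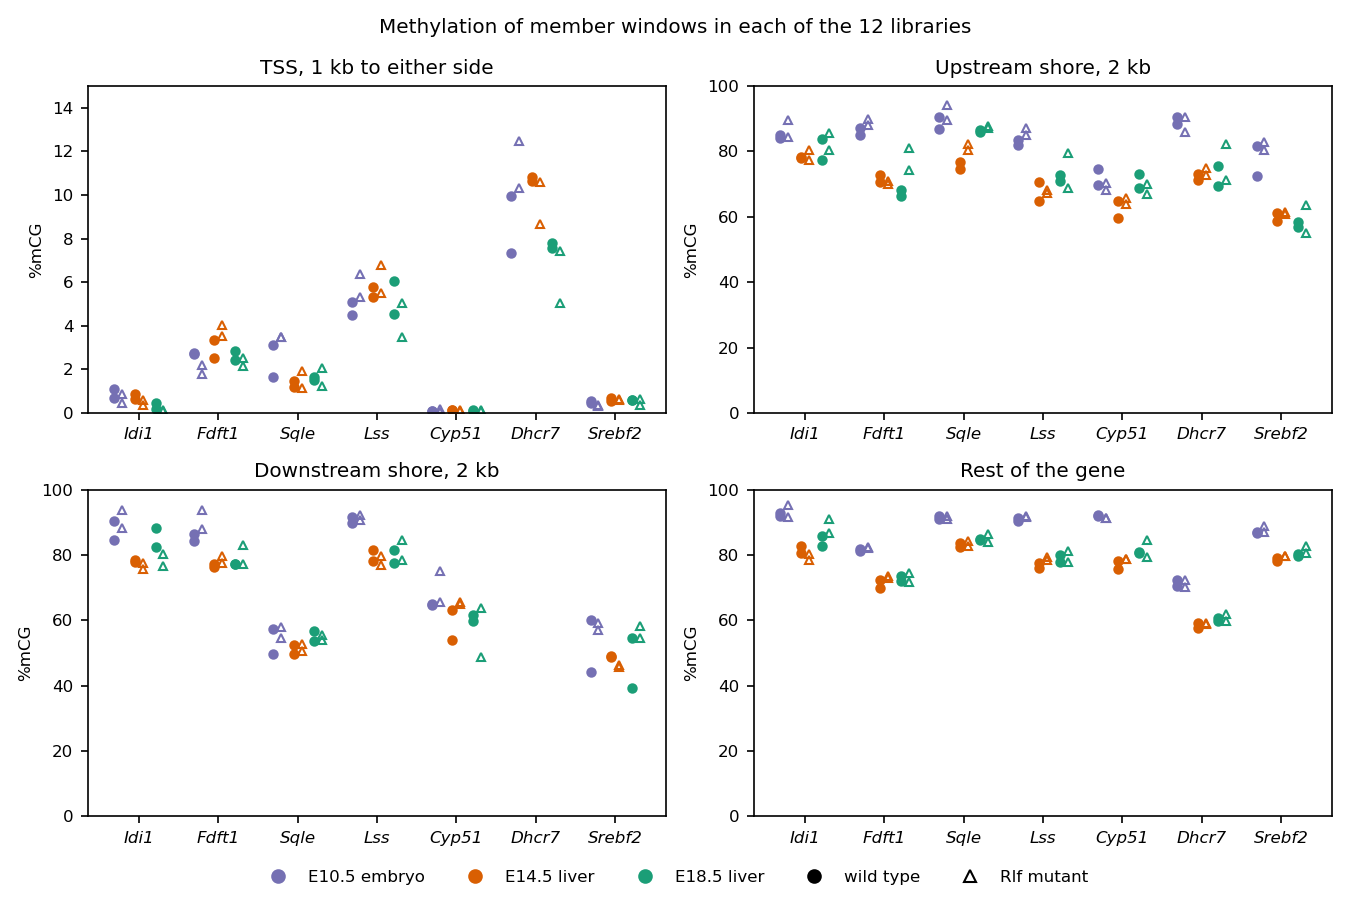
Percent methylation of each gene in each WGBS library, in 4 panels for the TSS window, the upstream shore, the downstream shore and the gene body, with a point for each library by stage and genotype. TSS windows stay below 12.5% and gene bodies lie between 57.7% and 95.2%.

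The shores, from 1 to 3 kb before and after the TSS, and the gene bodies beyond them were methylated at a much higher level. Upstream shores ranged from 55.1% (Srebf2) to 94.3% (Sqle) and tested downstream shores from 39.2% (Srebf2) to 93.8% (Idi1) over the 12 libraries. The downstream shore of Dhcr7 held only 4 covered CpGs and was not tested, which leaves 27 windows. The shores hold few CpGs, 7 (Sqle upstream) to 35 (Sqle downstream) per window with data.

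Upstream shores were lower in E14.5 liver than in E10.5 embryo in all 7 genes. All 7 passed the test for a lower level, against 84.7% of upstream shores of all genes, so the change is shared with most of the genome. Srebf2 had 72.4%, 81.8%, 80.3% and 83.0% in the embryos (2 wild-type, then 2 homozygous) and 61.0%, 58.8%, 61.3% and 60.8% in the E14.5 livers. No liver reached the lowest embryo. The mean difference was -18.9 percentage points with an interval of -25.5 to -12.2 (adjusted p = 4.71e-07, edgeR quasi-likelihood test). Lss (-16.6 points), Fdft1 (-16.4) and Dhcr7 (-15.9) also fell by more than 15 points, which 49.4% of all upstream shores did. The differences were -11.9 points in Sqle, -7.31 in Idi1 and -7.19 in Cyp51. With replicate number as a block that of Idi1 was not called (adjusted p = 0.117, edgeR). At a coverage minimum of 10 reads that of Cyp51 was -3.45 points and not called (adjusted p = 0.1496, edgeR). These values depend on the window: with shores of 1 kb that begin 500 bp from the TSS, the difference was -1.57 points in Srebf2, -1.70 in Lss and -3.52 in Dhcr7, none called (adjusted p = 0.372, 0.627 and 0.207, edgeR). In Fdft1 it was 0.69 points and called higher (adjusted p = 0.0251, edgeR). That window of Fdft1 holds none of the covered CpGs of its main shore, the nearest of which lies at -1956 bp.

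Downstream shores and gene bodies followed the same direction. Of 6 downstream shores 4 were called lower (81.2% of all genes), namely Lss (-12.1 points), Idi1 (-11.9), Fdft1 (-10.4) and Srebf2 (-7.58). The interval of Srebf2, -18.8 to 3.68 points, includes 0, and its call was lost when any 1 of 5 libraries was left out, with -3.58 points (adjusted p = 0.293, edgeR) without wild-type embryo replicate 1. With the smaller windows it was 4.45 points, and Idi1 was -0.61 points and not called (adjusted p = 0.649, edgeR). Cyp51 (-5.79 points, interval -16.0 to 4.40, adjusted p = 0.0748) and Sqle (-3.53 points, interval -8.40 to 1.35, adjusted p = 0.137) did not pass. All 7 gene bodies were called lower (94.8% of all genes), from -8.24 points in Sqle to -13.8 in Cyp51. In Cyp51 the embryos had 92.0%, 92.2%, 91.4% and 91.2% and the E14.5 livers 75.7%, 78.2%, 78.8% and 78.8%.

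Among male libraries alone, all 21 windows called between these stages kept their direction, at 0.903 to 1.19 times the size.

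At the TSS the stage differences were small and of both signs. Of the 7 genes 3 were called, against 71.2% of all TSS windows in either direction. Sqle had 1.65%, 3.10%, 3.48% and 3.47% in embryos and 1.47%, 1.198%, 1.15% and 1.93% in E14.5 livers, a difference of -1.49 points (interval -2.43 to -0.55). The first wild-type embryo thus lay within the range of the livers. Fdft1 was higher in liver by 1.001 points and Srebf2 by 0.19 points (adjusted p = 0.00271 and 0.0102). All 3 calls were lost with TSS windows of 500 bp to either side, where the values were -0.0360 points for Sqle, 0.0176 for Fdft1 and -0.0207 for Srebf2, and those of Fdft1 and Srebf2 also at a coverage minimum of 10 reads (0.0582 and 0.10 points). Cyp51, Dhcr7, Idi1 and Lss did not pass, with differences from -0.16 to 0.52 points.

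The methylated reads of the Sqle window lay at its upstream edge. The first 5 CpGs beyond its unmethylated stretch, from -884 to -738 bp, had 33.8%, 48.6%, 51.5% and 55.1% in embryos. They had 19.6%, 21.0%, 19.5% and 25.3% in E14.5 livers and 25.6%, 23.8%, 27.7% and 20.6% in E18.5 livers. All 8 livers lay below all 4 embryos. In Idi1 the 5 CpGs past the downstream end, from 861 to 2381 bp, had 67.1% to 76.2% in embryos, 50.3% to 56.0% at E14.5 and 51.5% to 57.1% at E18.5. Of the 14 such edges of the 7 genes, 7 had all 4 E14.5 livers below all 4 embryos, 6 overlapped and 1 had the livers above. The last was the downstream edge of Srebf2, with 9.16% to 23.16% in embryos and 23.24% to 30.2% in E14.5 livers. Some of the 7 separated by little. The highest E14.5 liver and lowest embryo had 18.69% and 18.75% at the Srebf2 upstream edge. At the Idi1 upstream edge they had 79.0% and 79.6%. Edges of other genes were not measured, so no share over all genes stands beside these counts. The edge CpGs and the bins that follow were picked after their values were seen, and are given without a test.

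Of the bins of 250 bp within 5 kb of a TSS that hold at least 2 CpGs, those with the largest falls from embryo to E14.5 liver were in Sqle and Srebf2. In Sqle, 4 CpGs between -4.75 and -4.5 kb had 60.0%, 63.9%, 78.5% and 69.3% in embryos and 13.2%, 11.2%, 23.0% and 14.97% in E14.5 livers. At E18.5 they had 18.46% and 21.5% in wild-type and 33.3% and 42.4% in homozygous livers. In this bin the homozygous libraries lay above the wild-type libraries at each stage. The share of bins that separate in this way was not counted. Over all windows the homozygous mean was the higher one in 72.5% at E10.5, 76.2% at E14.5 and 75.1% at E18.5. In Srebf2, 2 CpGs between -1.75 and -1.5 kb had 55.6%, 59.0%, 52.1% and 59.3% in embryos and 10.3%, 11.2%, 10.7% and 9.21% in E14.5 livers. At E18.5 they had 20.7% and 21.2% in wild-type and 8.82% and 14.55% in homozygous livers, so here the homozygous libraries were the lower ones at that stage. The Srebf2 bin lies within its upstream shore. A single CpG of Fdft1, between -3.25 and -3 kb, fell further still, with 91.1%, 81.2%, 88.0% and 85.2% in embryos and 26.1%, 14.3%, 22.9% and 20.3% in E14.5 livers. Such bins rest on few reads, 59 to 182 per library in Sqle, 27 to 98 in Srebf2 and 18 to 59 in Fdft1.

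From E14.5 to E18.5 liver fewer windows changed. Of the 27 windows 7 were called, against 31942 of the 72101 windows of all genes. Dhcr7 at the TSS had 10.8%, 10.6%, 8.67% and 10.6% at E14.5 and 7.55%, 7.77%, 7.43% and 5.06% at E18.5. All 4 E18.5 livers were below all 4 E14.5 livers, and the difference was -3.23 points (interval -5.52 to -0.94, adjusted p = 0.00511). With replicate number as a block it was not called (adjusted p = 0.0952, edgeR). The TSS windows of Fdft1 (-0.88 points) and Idi1 (-0.40 points) were also called lower, so 3 of 7. Of all TSS windows 13.3% were called lower, a share that leaves out those called higher. The Idi1 levels were near 0 and overlapped, with 0.383% to 0.865% at E14.5 and 0.105% to 0.465% at E18.5. The upstream shores of Sqle (8.31 points, adjusted p = 0.00536) and Cyp51 (6.07 points, adjusted p = 0.0406) were called higher, 2 of 7 against 40.5% of all genes.

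Of the 6 downstream shores 0 were called between the livers by edgeR, and 0 had an unadjusted p under 0.05, against 37.8% of all genes called in either direction. The bodies of Idi1 (6.04 points) and Cyp51 (3.42 points) were called higher, 2 of 7 against 66.4% of all genes. The other 5 bodies had differences from 0.70 to 1.76 points. The Idi1 body rests on 8 covered CpGs, against 123 (Cyp51) to 776 (Srebf2) in the bodies of the other genes. Whether the pseudogene copy of Idi1 affects its methylation reads was not tested. Among female libraries alone, all 7 windows called kept their direction, at 0.710 to 1.13 times the size. The calls of the Fdft1 TSS, the Cyp51 body and the Cyp51 upstream shore were lost under 7 of 18, 7 of 18 and 6 of 17 alternatives. That of the Sqle upstream shore was lost with the smaller windows (2.81 points, adjusted p = 0.399, edgeR) and that of the Idi1 body without wild-type replicate 1 of E18.5 (adjusted p = 0.0523). The genome as a whole was more methylated at E18.5 than at E14.5, by 3.58 points in the median window of all genes against 1.42 points in the median of the 27.

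No window of the 7 genes was called between wild-type and homozygous samples at any stage. At E10.5 0 of 27 passed (1.28% of all 72101 windows), with 3 at an unadjusted p under 0.05 (12.6% of all). At E14.5 0 of 27 passed (0.567%), with 0 at an unadjusted p under 0.05 (8.19%). At E18.5 0 of 27 passed (0.419%), with 2 at an unadjusted p under 0.05 (10.8%). Averaged over the 3 stages 0 of 27 passed (6.52% of all), with 3 at an unadjusted p under 0.05 (23.1%). No other tool was run on methylation. In this average 21 of the 27 windows were higher in the homozygotes, with a median of 0.895 points, and the median of all windows was 1.28 points, 82.9% of them higher.

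**Figure D4:**
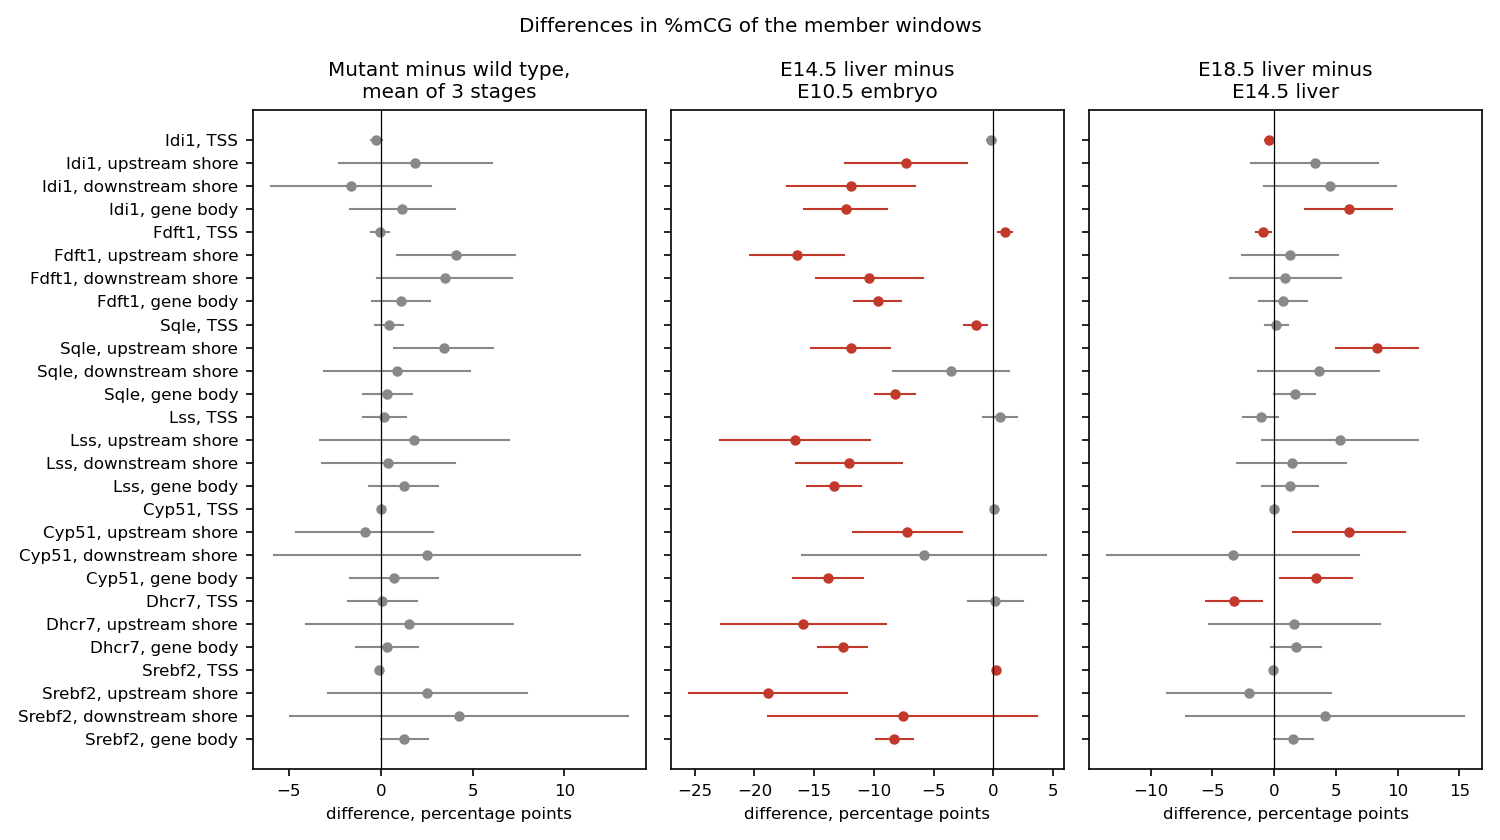
Difference in percent methylation (percentage points) of the 27 windows for homozygous minus wild-type averaged over the stages, E14.5 liver minus E10.5 embryo and E18.5 liver minus E14.5 liver, with 95% intervals from the spread within groups and red for an adjusted p under 0.05. No window is red in the first panel, 21 of 27 are red in the second and 7 of 27 in the third.

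The shores of Fdft1 were the windows with the smallest p-values for genotype. The upstream shore (chr14:63797631-63799630) had 85.0% and 87.0% in wild-type and 90.0% and 88.1% in homozygous embryos. At E14.5 it had 72.8% and 70.7% against 70.1% and 71.0%, and at E18.5 66.3% and 68.2% against 81.0% and 74.2%. The homozygous libraries were above the wild types at E10.5 and E18.5, and overlapped them at E14.5. The difference at E18.5 was 10.4 points (interval 4.81 to 15.9, adjusted p = 0.218 by the edgeR quasi-likelihood test), and the average over stages was 4.09 points (interval 0.90 to 7.29, adjusted p = 0.115). When homozygous replicate 2 of E18.5 was left out, these 2 values were called, with adjusted p-values of 0.0400 and 0.0251. Over all CpGs the library left in, homozygous replicate 1, stood apart with 65.4% methylation, against 61.3% in homozygous replicate 2 and 61.3% and 61.6% in the wild types, and without homozygous replicate 2 the windows of all genes called at E18.5 rose from 302 to 2290. Without homozygous replicate 1 the 2 values were 6.99 and 2.97 points (adjusted p = 0.782 and 0.271, edgeR). With the smaller windows they were -0.27 and 0.0678 points. That smaller shore holds only CpGs of the unmethylated stretch, since the next covered CpG lies at -1956 bp. It therefore does not test the difference in the main shore.

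The difference between the liver stages in the effect of genotype at this shore was 11.5 points (interval 3.65 to 19.3, unadjusted p = 0.0126, adjusted p = 1). This contrast called 0 of 72101 windows (0%), with 2022 (2.80%) at an unadjusted p under 0.05, and 0 of the 27. Within the shore, 1 CpG between -2.5 and -2.25 kb had 25% and 28.6% in wild-type and 52.4% and 64.3% in homozygous E18.5 livers, from 14 to 21 reads a library. At E14.5 it had 37.1% and 46.2% against 51.7% and 26.3%, with no separation of the genotypes. This CpG was picked after its values were seen and is given without a test. It is 1 of the 10 covered CpGs of the shore, so its reads are part of the shore values. The downstream shore of Fdft1 had 86.5% and 84.2% against 93.7% and 88.0% at E10.5, and its average over stages was 3.48 points (interval -0.18 to 7.14, adjusted p = 0.127).

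The TSS windows of all genes but Dhcr7 had narrower intervals for genotype than any gene body or shore of the 7 genes. Averaged over the stages, the interval of Cyp51 was -0.07 to 0.06 points and that of Srebf2 -0.22 to 0.05. That of Idi1 was -0.54 to 0.06 around -0.24 points (adjusted p = 0.136). For Dhcr7, the widest of the TSS windows, it was -1.79 to 1.95 points. Shores allowed more: the intervals of upstream shores reached from -4.61 to 7.94 points and those of downstream shores from -6.00 to 13.4. Differences of a few points in a shore thus lie within the intervals, and an average difference of 2 points at a TSS lies outside those of all 7 genes.

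The Srebf2 gene body, which holds Mir33 in an intron, was the window with the most CpGs (776 covered). It had 86.8% and 86.9% in wild-type and 87.0% and 88.9% in homozygous embryos. At E14.5 it had 78.1% and 79.1% against 79.7% and 79.6%, and at E18.5 79.5% and 80.2% against 82.7% and 80.5%. The homozygous libraries lay above the wild types at each stage, as they did in 14.2% of all gene bodies, and the average difference was 1.29 points (interval 0.02 to 2.57, adjusted p = 0.219). Mir33 itself had 0 counts in all 6 RNA-seq libraries, which were made from poly(A) RNA, and a count of 0 does not show that the microRNA is absent.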

How the data were processed

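WGBS of 12 samples and RNA-seq of 6 samples were analysed, and 4 H3K4me1 ChIP-seq samples were not analysed here. For WGBS the authors trimmed paired-end reads, mapped them with Bismark and Bowtie2 to mm9 carrying FVB substitutions, removed PCR duplicates and deposited, per CpG, methylated and unmethylated read counts and a rounded percent; the counts were used. For RNA-seq the authors mapped reads with TopHat and deposited raw counts per Ensembl gene from htseq-count, run without strand. A mapping that keeps unique reads lowers counts of genes with near-identical copies.

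CpGs covered by 6 reads or more in each of the 12 libraries entered, and their counts were summed over the TSS window (1 kb to either side), shores of 2 kb and the gene body, at the protein-coding transcript with the longest coding sequence. Windows needed 5 CpGs. Methylated and unmethylated counts were fitted with edgeR 4.0.16 (quasi-likelihood test, 1 intercept per library, 6 groups) over all 72101 windows, and RNA counts with edgeR, TMM and filterByExpr over 14183 genes, with Benjamini-Hochberg adjustment and a threshold of 0.05. Intervals in percentage points are 95% intervals from the pooled SD within groups, and those of log2 fold changes come from the fit. Intervals cover the spread of libraries. DESeq2 1.42.0 was the alternative for expression. R 4.3.3, python 3.11.15, samtools 1.23.1 and blastn 2.17.0 were used, and the scripts were tested on simulated data. RPKM used the summed exon length of all transcripts.

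Gene names came from GENCODE on mm9, which named 37205 of the 37991 identifiers. Named genes are the 8 genes, every called gene and the 2 smallest p-values of each pathway list, Rlf, the 2 most abundant markers of each cell type, and the 5 genes most like the members over the livers. Some genes of the pathway lists that this rule names are not reported here. The members and lists were chosen with earlier results of these data known. In RNA-seq, replicates of the same number shared their deviations from the mean of the genotype (r = 0.125, 0.226 and 0.409 over 14183 genes). On this check of the counts alone replicate number was taken to pair the samples, and replicate 3 is also the female of each genotype. The main expression test did not use the pairs, which entered only as the block among the alternatives. Alternatives were DESeq2 size factors, no filter on low counts, a term for sex, a block for the replicate number, other coverage minimums, the TSS chosen, the window widths, separate fits per stage, autosomes alone and stages within 1 sex (both added after the data were seen) and leaving out each library.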

Additional observations from a re-analysis of the deposited data

Results flagged for a closer look

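In 3 windows the homozygous and wild-type libraries separated in opposite directions at E10.5 and at a liver stage, with 2 libraries in each group, and the difference between E10.5 and the liver stages was not tested. These are 3 of the 27 windows, against 5.93% of all windows. In the gene body of Cyp51 both homozygous embryos were below both wild types at E10.5 (-0.847 points), and both homozygous livers were above at E14.5 (1.86 points). In the TSS window of Dhcr7 the homozygous embryos were above the wild types at E10.5 (2.76 points), where 7.32% and 9.96% stood against 10.3% and 12.5%. There both homozygous livers were below both wild types at E14.5 (-1.11 points) and at E18.5 (-1.42 points). In the TSS window of Fdft1 the homozygous embryos were below at E10.5 (-0.715 points) and the homozygous livers above at E14.5 (0.834 points). They did so between the liver stages in 2 more windows, against 2.72% of all windows, and there the difference was tested and not called. In the gene body of Idi1 the homozygous livers were below at E14.5 (-2.25 points) and above at E18.5 (4.71 points), and in the downstream shore of Srebf2 below at E14.5 (-2.78 points) and above at E18.5 (9.58 points, from 1.97 points without wild-type replicate 1 to 17.2 points without wild-type replicate 2), each with an adjusted p = 1 for the difference between stages (edgeR). None of these differences passed the test within its stage, and the 95% interval of each includes 0. The gene body of Idi1 rests on 8 covered CpGs.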

How the results depend on the processing

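The 0 calls among the 7 genes in expression held under all 11 alternatives, and the 0 calls among the 27 windows for genotype at E10.5, at E14.5 and in the difference between liver stages held under all of theirs. All genes called in expression numbered 532 without a filter on low counts, 460 with replicate number as a block, and 66 to 224 with 1 library left out (66 without homozygous replicate 1), against 197. Fasn (adjusted p = 0.0243) and Abca1 (adjusted p = 0.0133) were called without the filter. With 1 library left out the log2 fold change ran from -0.0949 to 0.0570 for Fdft1, from -0.119 to 0.0349 for Idi1 and from -0.0428 to 0.0237 for Sqle, so their signs are not fixed. The signs of the other 4 genes held, and their smallest values were 0.15 for Lss (without wild-type replicate 1), 0.0703 for Cyp51 and 0.0349 for Dhcr7 (both without homozygous replicate 2) and 0.0353 for Srebf2 (without homozygous replicate 1). Without homozygous replicate 1, Abca1 was at 0.20 and Fasn at 0.19.

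Windows of the 27 called for genotype with 1 library left out numbered 0 to 1 at E18.5 and 0 to 2 in the average over stages, with 1 without homozygous replicate 2 of E10.5 and 2 without homozygous replicate 2 of E18.5. Calls from E10.5 to E14.5 ranged from 20 to 22 and from E14.5 to E18.5 from 4 to 8, with 4 when homozygous replicate 1 of E14.5 or wild-type replicate 1 of E18.5 was left out. With windows of 500 bp to either side and shores of 1 kb, 12 windows were called from E10.5 to E14.5, against 50817 of 66866 windows of all genes. Between those stages these values changed sign: 0.69 points for the Fdft1 upstream shore, -0.0207 for the Srebf2 TSS and 4.45 for the Srebf2 downstream shore. So did -0.27 for the Fdft1 upstream shore at E18.5, -1.21 for its difference between liver stages, and -0.0170 for the Sqle TSS at E10.5. The smaller upstream shore of Fdft1 holds none of the covered CpGs of its main shore.

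Over all windows the calls for genotype were 925, 409 and 302 at E10.5, E14.5 and E18.5. They were 2063, 1106 and 817 with replicate number as a block, 1873, 958 and 677 on autosomes alone, 1824, 899 and 411 in separate fits, and 566, 309 and 255 with the smaller windows. In the average over stages 4702 became 2290 to 12390 with 1 library left out, the largest without homozygous replicate 2 of E18.5, and for E18.5 302 became 79 to 2290. At E10.5 the range was 151 to 1472 and at E14.5 130 to 470. From E14.5 to E18.5, 31942 became 19928 with the smaller windows and 19052 to 36022 with 1 library left out. The difference between liver stages gave 5 calls with the block and 2 on autosomes. The cause was not tested. In WGBS, same-numbered replicates did not deviate together at each stage (r = 0.0749, 0.204 and -0.0229), and were not taken as pairs, although at E14.5 the same number also marks the same sex. The replicate block called 0 of the 27 windows in each genotype comparison, and in no other result of the 7 genes did it change a call for genotype. Between stages it removed the calls of the TSS of Fdft1 (both comparisons), Srebf2 and Dhcr7 and of the Idi1 upstream shore. Shores rest on few CpGs, and a lone library left in a group is assumed to vary like the other groups.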
